A study of Mus musculus with 12 samples.

Results

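Splicing regulators bind precursor messenger RNA and decide which exons are kept. The genes described here are the members of 11 families of these regulators in the mouse, chosen by symbol: the SR proteins (Srsf) and the related Tra2 proteins, the heterogeneous nuclear ribonucleoproteins (Hnrnp), the Ptbp, Rbfox, Nova, Celf, Mbnl and Elavl families, and the Sf3a and Sf3b subunits of the spliceosome. Symbols ending in -ps, which mark pseudogenes, were left out. The rule found 63 of the 52636 genes listed, and 62 of them had a mean of at least 1 TPM (a level that corrects for transcript length and in which every library has an equal sum). Mbnl3 did not, with a mean of 0.0536 TPM, and was not tested.

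Polyadenylated RNA came from the hippocampi of 12 mice of the strain C57BL6/J, wild-type and 18 weeks old, with 1 mouse per library. The 4 groups of 3 mice were males with low extinction, males with high extinction, females with low extinction and females with high extinction. In extinction, learned fear fades once its cue or place is met without harm, and the labels give each mouse as low or high with no score. The study asked which transcripts differ between weak and strong extinction learners. All changes are low minus high extinction, on a log2 scale, so a positive change means more RNA in the mice with low extinction.

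SR proteins mostly bind exonic enhancers and favour inclusion of the exon, whereas many hnRNP proteins bind silencers and favour skipping. Rbfox, Nova, Celf, Mbnl and neuronal Elavl proteins set splicing programmes of neurons and muscle, and Ptbp2 replaces Ptbp1 as neurons form. The Sf3a and Sf3b proteins hold the branch point of the intron within the spliceosome. Many SR and hnRNP genes limit their own protein by splicing in an exon that sends the transcript to nonsense-mediated decay, so their RNA level and their splicing are linked.

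The promoters of Srsf11, Srsf5 and Hnrnpu are shown because the results below turn on these genes. Each is the 250 bases before the RefSeq start on GRCm38.p6, read 5′ to 3′ on the strand of the gene, with the ETS core motif (CCGGAAG on either strand) in capitals. They lie at chr3:158036607-158036856 on the minus strand, chr12:80945249-80945498 on the plus strand and chr1:178337816-178338065 on the minus strand.
Srsf11: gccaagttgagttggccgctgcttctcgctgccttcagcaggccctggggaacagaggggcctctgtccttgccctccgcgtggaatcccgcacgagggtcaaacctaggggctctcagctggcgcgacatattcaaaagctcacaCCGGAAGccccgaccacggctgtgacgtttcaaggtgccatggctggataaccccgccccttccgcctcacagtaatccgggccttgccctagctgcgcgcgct
Srsf5: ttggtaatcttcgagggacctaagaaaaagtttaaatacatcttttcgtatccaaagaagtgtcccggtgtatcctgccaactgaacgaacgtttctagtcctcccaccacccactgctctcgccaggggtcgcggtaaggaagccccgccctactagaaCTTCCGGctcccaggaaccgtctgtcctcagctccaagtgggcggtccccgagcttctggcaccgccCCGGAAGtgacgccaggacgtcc
Hnrnpu: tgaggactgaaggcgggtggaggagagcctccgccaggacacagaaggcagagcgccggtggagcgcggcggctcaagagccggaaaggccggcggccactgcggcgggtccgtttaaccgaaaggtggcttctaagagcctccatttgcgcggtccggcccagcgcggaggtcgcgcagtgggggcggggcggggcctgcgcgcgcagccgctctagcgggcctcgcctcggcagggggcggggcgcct
The Srsf11 window held 1 ETS core and the Srsf5 window held 2, while the Hnrnpu window held 0 and was 73.6% G and C, against 63.6% and 56.8% in Srsf11 and Srsf5. A promoter window was found for 56 of the 63 members. Each member gave 1 window, chosen by its distance to the gene start. On the minus strand that distance was taken from a point upstream of the RefSeq start. The window of a member on that strand therefore need not be the nearest. The background took every window listed, whether or not its gene was expressed here. The ETS core was in 12 of those 56 windows (21.4%), against 6.91% of all 32851 promoter windows of the same length. The GC box (GGGCGG) was in 36 windows (64.3%), against 32.7% of all promoters, and the CCAAT box (CCAAT) in 25 (44.6%), against 33.8%. The cyclic AMP element (TGACGTCA) was in 2 windows (3.57%), against 1.55%, and its 5-letter part TGACG, which also lies within the full element, in 20 (35.7%), against 17.8%. The NRF1 motif (GCGCA, any base, then GCGC) was in 3 windows (5.36%), against 3.74%, and the TATA box (TATAAA) in 8 (14.3%), against 12.4%. All motifs were searched on both strands. The members' windows had a median of 61.2% G and C, against 52.4% for all promoters, and GC-rich motifs occur more often in GC-rich sequence.

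Within the 12 libraries the summed level of the members was 5421 to 5514 TPM in males with low extinction, 5073 to 5784 TPM in males with high extinction, 5794 to 6344 TPM in females with low extinction and 5392 to 5702 TPM in females with high extinction. Transcripts derived from ribosomal RNA took 12.4% to 13.5% of TPM in males with low extinction and 9.68% to 20.4% in males with high extinction. They took 5.96% to 10.4% in females with low extinction and 9.16% to 12.2% in females with high extinction, and any such transcript lowers the TPM of all others. Without them the members made up 0.619% to 0.638% of TPM in males with low extinction and 0.622% to 0.640% in males with high extinction. In females the shares were 0.647% to 0.675% with low extinction and 0.610% to 0.649% with high extinction. The groups overlapped in both sexes by that share. The 8 markers of hippocampal subfields summed to 703 to 764 TPM in males with low extinction and 636 to 752 TPM in males with high extinction, and to 576 to 703 TPM in females with low extinction and 620 to 736 TPM in females with high extinction. Among them Prox1, of dentate granule neurons, lay between 39.0 and 50.6 TPM over all libraries and C1ql2, of the same neurons, between 45.3 and 88.2 TPM. Reads per library are unknown. Summed over genes, the authors' mean normalized count came to 42.6 M for the male table and 43.4 M for the female table.

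The Hnrnp family supplied 41.9% of the members' RNA. Its 20 genes ran from a mean of 33.6 TPM for Hnrnpf to 452 TPM for Hnrnpa2b1, which also binds sequence signals that carry RNA into dendrites. The 11 Srsf genes supplied 14.7%, from 19.6 TPM for Srsf3 to 195 TPM for Srsf11. The 6 Celf genes supplied 13.3%, from 13.6 TPM for Celf6 to 276 TPM for Celf4. The 3 Rbfox genes supplied 9.19%, with 87.3 TPM for Rbfox2, 169 TPM for Rbfox3, whose protein is the neuronal marker NeuN, and 261 TPM for Rbfox1.

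The smaller families differed in how their members were balanced. Ptbp2, the form enriched in neurons, averaged 87.4 TPM, against 28.4 TPM for Ptbp1 and 13.9 TPM for Ptbp3. Mbnl2 averaged 133 TPM and Mbnl1 48.4 TPM, while Mbnl3 was listed at 0 in 3 of the 12 libraries. Nova2 averaged 38.3 TPM and Nova1 20.2 TPM. Elavl3 averaged 138 TPM, against 42.6 TPM for Elavl4, 37.9 TPM for the widely expressed Elavl1 and 30.1 TPM for Elavl2. The 3 Sf3a genes lay close together, at 28.4 to 34.8 TPM, and the 6 Sf3b genes ran from 8.01 TPM for Sf3b5 to 128 TPM for Sf3b2. Tra2a averaged 61.8 TPM and Tra2b 34.8 TPM.

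**Figure D1:**
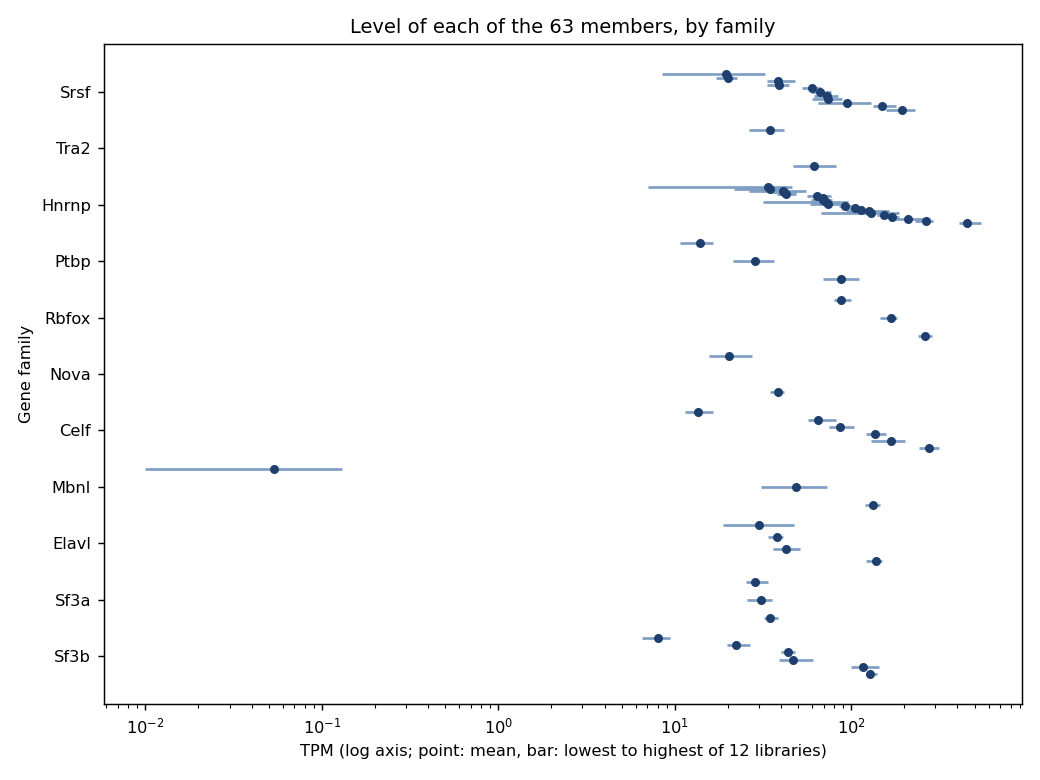
Mean TPM of each member over 12 libraries on a log axis, grouped by family, with a bar over the range of the libraries. Hnrnpa2b1 stands highest at a mean of 452 TPM and Mbnl3 lowest at 0.0536 TPM, and the Mbnl3 bar, drawn to 0.01, includes libraries listed at 0.

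Srsf11, an SR-related protein that promotes inclusion of neuronal microexons, had changes of like size in both sexes. It lay at 206, 192 and 192 TPM in males with low extinction, against 158, 177 and 171 TPM in males with high extinction. In females it lay at 221, 231 and 220 TPM with low extinction and at 203, 188 and 179 TPM with high extinction. Low and high libraries did not overlap in either sex. The averaged change was 0.23 (SE 0.05, limma's unadjusted p = 0.000505, adjusted p = 0.291), so it did not pass the test over 18499 genes. In the authors' deposited tables, which rest on counts, its change was 0.18 (SE 0.06, adjusted p = 0.281) in males and 0.20 (SE 0.06, adjusted p = 0.0690) in females. The mean of these deposited changes, a combination chosen after the values were seen, was 0.19 (SE 0.04, adjusted p = 0.00466), or 1.14-fold. In whole tissue, a change in the number of cells of a type and a change in RNA per cell cannot be told apart. Srsf11 (ENSMUSG00000055436.18) spans chr3:158010473-158036639 on the minus strand of GRCm38 and overlaps Gm43362 on the same strand, so reads in the overlap are uncertain.

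Srsf5, an SR protein described in rat liver as a gene induced by insulin, was the 1 member called in the authors' deposited tables. Its deposited change was 0.21 (SE 0.06, adjusted p = 0.0350) in females, or 1.16-fold, and 0.10 (SE 0.06, adjusted p = 0.768) in males. The deposited female table called 0.857% of 15644 genes in both directions and 0.569% in the higher direction, and the male table called 0.504% of 20050 genes and none of the 62 members. At an unadjusted p under 0.05 the male table had 3 members higher and 1 lower, against 2.67% and 4.91% of genes at 1 TPM or more. The female table had 8 higher and 2 lower, against 3.59% and 5.09%. The mean of both deposited changes of Srsf5 was 0.16 (SE 0.04, adjusted p = 0.0276), and their difference, male minus female, was -0.11 (SE 0.08). By this added combination 2 members were called, Srsf11 and Srsf5, both higher, against 0.848% of 18043 genes in both directions and 0.454% in the higher one. For Srsf5 the combination includes a male change whose sign TPM did not share, and its averaged change on TPM was -0.03. For the male minus female difference of the deposited changes 0 members were called, against 0.333% of genes. Srsf5 (ENSMUSG00000021134.17) spans chr12:80945504-80950507 on the plus strand.

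The TPM of Srsf5 did not follow the counts. It was 95.1, 76.1 and 69.5 TPM in males with low extinction, against 98.1, 99.1 and 97.7 TPM in males with high extinction, with no overlap and with the low libraries below on TPM as deposited. In females it was 108, 89.3 and 129 TPM with low extinction, against 101, 115 and 64.5 TPM with high extinction, and those groups overlapped. The change on TPM was -0.30 in males (exact permutation test, two-sided, p = 0.1, the smallest that 3 against 3 allows). The groups overlapped under other scalings, with an exact permutation p of 0.2 without ribosomal RNA-derived genes and 0.3 under median ratios. It was 0.24 in females (exact permutation p = 0.6), and -0.0040 without replicate 3 of the high-extinction females. It was -0.03 on average (exact permutation within sex, p = 0.86). In males the TPM change and the deposited change therefore had opposite signs. No direction for Srsf5 in males is given here.

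Among the other SR genes, Srsf6, which regulates exons of tau, had deposited changes of 0.17 (adjusted p = 0.422) in males and 0.14 (adjusted p = 0.405) in females, and Srsf1, the founding SR protein, had 0.05 and 0.12. Neither passed. Srsf4 lay at 39.6, 41.7 and 39.0 TPM in males with low extinction and at 37.6, 33.4 and 42.3 TPM in males with high extinction. In females it lay at 35.7, 36.1 and 37.4 TPM with low extinction, against 42.3, 39.0 and 44.4 TPM with high extinction, which did not overlap. Its deposited changes were -0.01 (SE 0.10) in males and -0.03 (SE 0.09) in females. Over the family, 9 of 11 Srsf genes had a deposited change above 0 in males and 9 of 11 in females, with medians of 0.06 and 0.07. The background was 47.9% of genes above 0 in males and 45.9% in females.

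Among the hnRNP genes, Hnrnph3 and Hnrnpu had low libraries above high libraries in both sexes on TPM as deposited. Hnrnph3, of the group that binds runs of G, lay at 68.2, 68.5 and 61.3 TPM in males with low extinction and at 60.1, 59.4 and 56.5 TPM in males with high extinction. The library at 61.3 TPM had 12.4% of its TPM derived from ribosomal RNA, and the library at 60.1 TPM had 20.4%. Setting that share aside reverses their order, so the male groups then overlap. In females it lay at 66.8, 70.2 and 76.7 TPM with low extinction and at 59.1, 56.7 and 59.4 TPM with high extinction. Its averaged change was 0.22 (SE 0.05, limma's unadjusted p = 0.000852, adjusted p = 0.349), and its deposited change was 0.12 in each sex. Neither measure passed the threshold.

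Hnrnpu, a nuclear scaffold protein that binds DNA and RNA, lay at 229, 200 and 200 TPM in males with low extinction and at 171, 188 and 193 TPM in males with high extinction. In females it lay at 220, 253 and 280 TPM with low extinction and at 200, 205 and 187 TPM with high extinction. Its averaged change on TPM was 0.26 (SE 0.07, limma's adjusted p = 0.367). The deposited changes were smaller, at 0.04 in males and 0.11 in females. Hnrnph3 overlaps Rufy2 and Hnrnpu overlaps Cox20 on the opposite strand, and the sources used here do not say whether counting used strand, so reads of each pair may be mixed.

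Of the other hnRNP genes, Hnrnpdl had a deposited change of 0.18 in females and 0.04 in males and an averaged change on TPM of 0.27 (limma's adjusted p = 0.539). Hnrnpm, which binds GU-rich RNA, had the highest deposited change of the members in males, 0.19 (adjusted p = 0.200), and 0.03 in females. Hnrnpa0 had 0.05 in males and -0.15 in females. Of the 20 Hnrnp genes, 13 had a deposited change above 0 in males and 15 in females, with medians of 0.03 and 0.05. Among the other members with the smallest averaged p on TPM, the changes were 0.13 for Srsf1, 0.20 for Tra2b, 0.13 for Srsf9 and 0.19 for Sf3b6, with limma's adjusted p from 0.564 to 0.644. In the lower direction Celf6 had -0.14 (limma's adjusted p = 0.676), and the 7 members next to it, Hnrnpf, Elavl2, Nova2, Sf3b4, Srsf4, Hnrnpc and Hnrnpr, had adjusted p from 0.854 to 0.921.

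**Figure D2:**
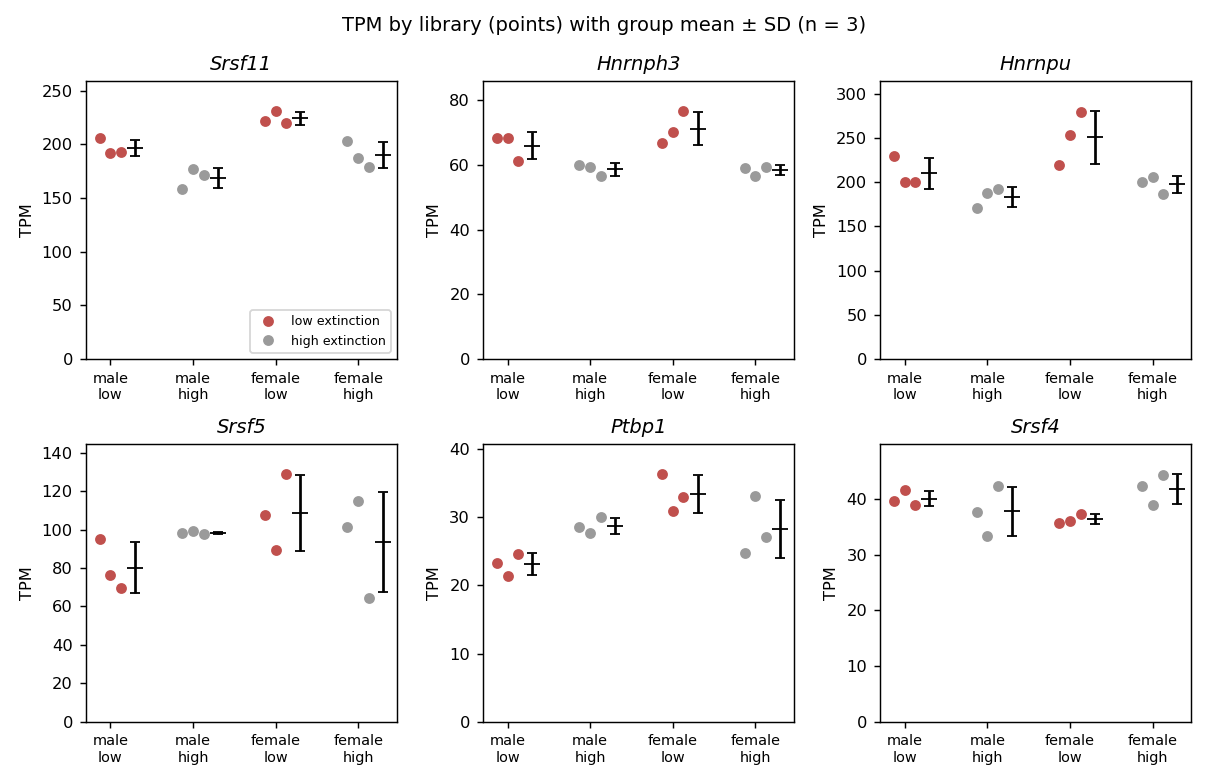
TPM of Srsf11, Hnrnph3, Hnrnpu, Srsf5, Ptbp1 and Srsf4 in each library, 3 per group, with group means and SD, low extinction left of high extinction within each sex. On TPM as deposited, Srsf11, Hnrnph3 and Hnrnpu lie higher with low extinction in both sexes without overlap. The male groups of Hnrnph3 overlap once the share derived from ribosomal RNA is set aside. The TPM of Srsf5 in males, 69.5 to 95.1 with low and 97.7 to 99.1 with high extinction, has the sign opposite to its deposited change.

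Limma on TPM called 0 of 62 members in each of the 4 comparisons (males, females, their average and their difference). Of all genes, it called 0% of 18303 genes in males, 0.0107% of 18668 in females, 0% of 18499 on average and 0.00541% of 18499 for the difference. At an unadjusted p under 0.05, 1 member was higher and 2 were lower in males, against 2.36% and 3.93% of genes. In females 11 were higher and 1 was lower, against 7.87% and 0.954%, but the split and the background both moved with the scaling. With TPM scaled by median ratios it was 6 and 2 in females, against 4.22% and 3.15% of genes, and without the ribosomal RNA-derived genes 7 and 1, against 5.35% and 1.84%. On average 8 were higher and none lower, against 5.78% and 1.91%. The averaged split was 9 and 1 under median ratios, against 5.11% and 3.37%, and 6 and 1 without those genes, against 4.58% and 3.85%. Males under median ratios had 5 higher and 1 lower, against 3.58% and 3.36%, and without those genes 2 and 3, against 2.40% and 5.66%. For the male minus female difference 1 was higher and 2 were lower, against 0.908% and 7.02%. It was 3 and 1 under median ratios, against 3.01% and 3.51%, and 1 and 3 without those genes, against 1.31% and 6.48%.

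On TPM as deposited, low and high libraries did not overlap for 3 members in the higher direction in males, Srsf11, Hnrnph3 and Hnrnpu, against 4.2% of genes. They did not overlap for 4 in the lower direction, Srsf5, Ptbp1, Celf6 and Hnrnpf, against 7.28%. In females 10 members were higher without overlap, against 14.3% of genes, and 2 were lower, Srsf4 and Hnrnpa0, against 1.98%. The 10 higher members in females were Srsf1, Srsf11, Hnrnpa2b1, Hnrnpdl, Hnrnph3, Hnrnpl, Hnrnpu, Elavl1, Elavl4 and Mbnl2. Setting aside the share derived from ribosomal RNA makes the female groups of Hnrnpl, Elavl1, Hnrnpa2b1 and Mbnl2 overlap. The share of all genes was not computed on that scale. The female share of 10 in 62 lay near that of all genes. On that same scale Srsf11, Hnrnph3 and Hnrnpu were higher without overlap in both sexes. The male groups of Hnrnph3 overlap once the share derived from ribosomal RNA is set aside. The share of all genes that were so in both sexes was not computed, so these 3 cannot be set against a background. The members' median change on TPM was -0.0021 in males, 0.10 in females and 0.05 on average, against -0.02, 0.06 and 0.02 for all genes. Leaving out 1 library gave a median from -0.053, without replicate 1 of the high-extinction males, to 0.041, without their replicate 3, in males, and from 0.011 to 0.068 on average without the same libraries. The median was 0.054 to 0.12 in females on leaving out 1 library, and 0.029 under median ratios. In the deposited tables the members' median was 0.03 in each sex, against -0.01 for all genes in each sex.

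Ptbp1, the repressor of neuronal exons that glia and precursors express, had the smallest p of the members for a difference between sexes. It lay at 23.3, 21.4 and 24.6 TPM in males with low extinction and at 28.6, 27.6 and 30.0 TPM in males with high extinction, without overlap. In females it lay at 36.4, 30.9 and 33 TPM with low extinction and at 24.8, 33 and 27.1 TPM with high extinction, which overlapped. The change was -0.30 (SE 0.09) in males and 0.24 (SE 0.12) in females, and their difference was -0.54 (SE 0.15, limma's unadjusted p = 0.00367, adjusted p = 0.459). The deposited changes gave -0.24 (SE 0.10) and 0.07 (SE 0.09), with a difference of -0.31 (SE 0.14, adjusted p = 0.675). The difference passed in neither. The other members with the smallest p for this difference on TPM were Srsf4 (0.28), Hnrnpa2b1 (-0.24), Celf1 (-0.31) and Nova1 (-0.45), with limma's adjusted p from 0.606 to 0.658. Ptbp1 overlaps Plppr3, Gm17134 and E130317F20Rik on the opposite strand.

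The neuronal regulators varied by family and none passed a test. All 3 Rbfox genes had deposited changes above 0 in males, with a median of 0.06, and below 0 in females, with a median of -0.07, and no adjusted p passed. Celf6 had deposited changes of -0.16 in each sex and lay at 13.4, 13 and 12.0 TPM in males with low extinction, against 13.5, 14.9 and 16.4 TPM in males with high extinction. Nova2, which controls exons of synaptic proteins, had -0.08 in males and -0.14 in females. Of the 6 Celf genes 5 were above 0 in males and 3 in females, and of the 4 Elavl genes 3 were in each sex. Sf3b1, the subunit that contacts the branch point and is often mutated in blood cancers, had 0.11 in males and 0.12 in females. Of the Sf3b genes 5 of 6 were above 0 in males and 2 of 6 in females, and of the 3 Sf3a genes 1 was in each sex.

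**Figure D3:**
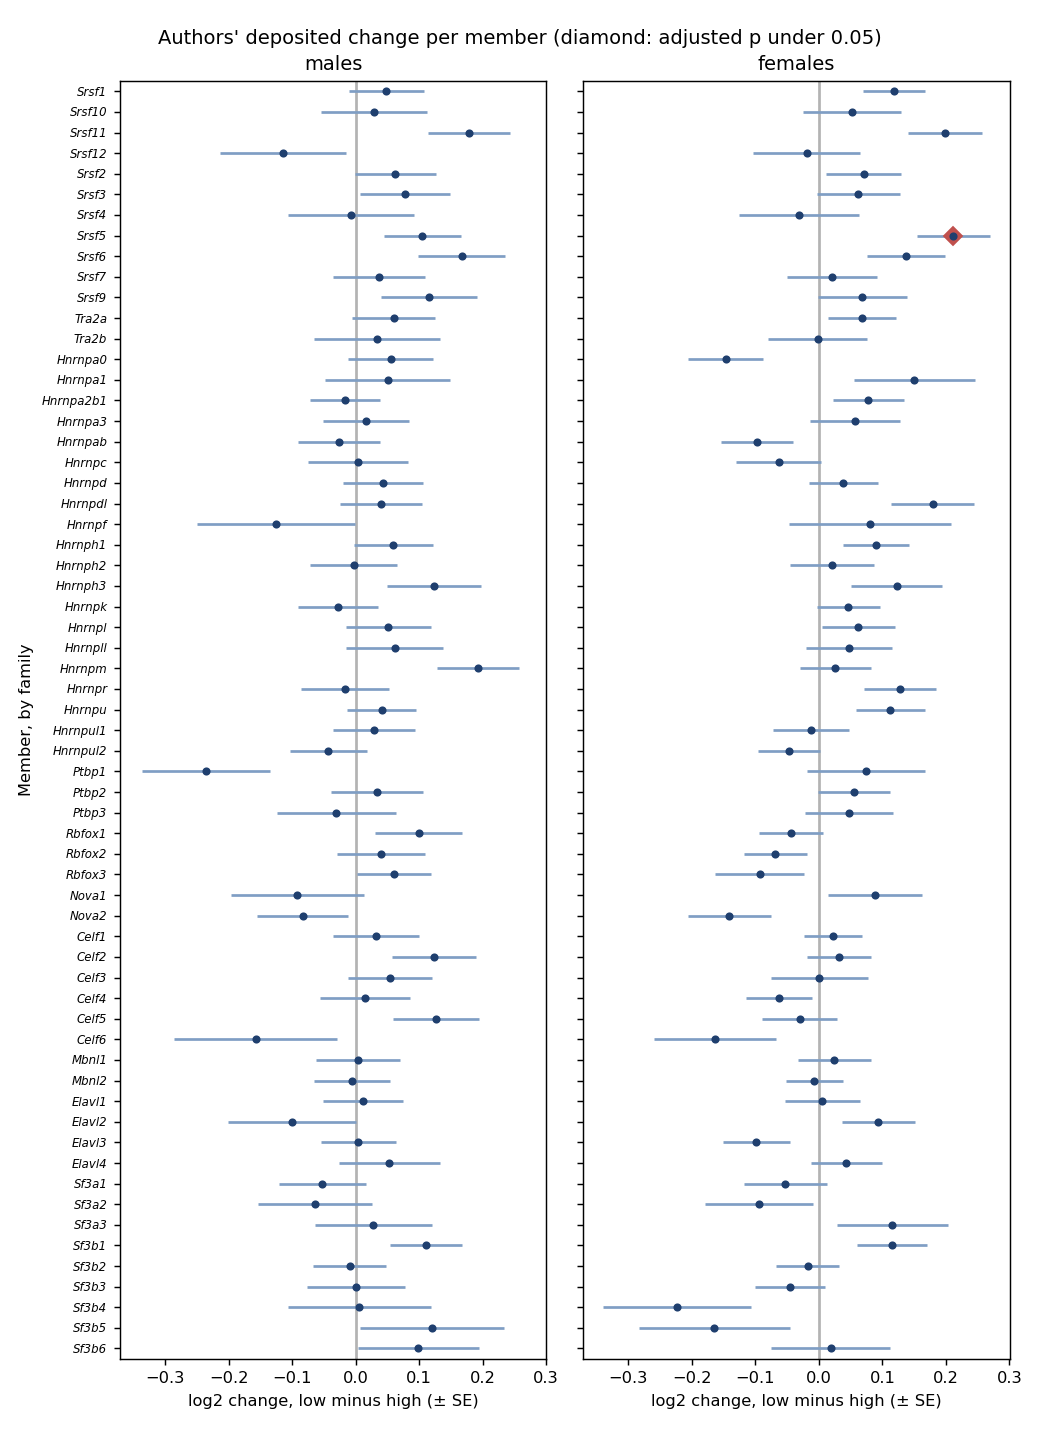
Deposited log2 change, low minus high extinction, with its SE for each of 62 members in males and females. A diamond marks an adjusted p under 0.05, which Srsf5 has in females at 0.21, and Ptbp1 in males lies lowest at -0.24.

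The 2 measures of change did not always point the same way. TPM and deposited changes had opposite signs for 14 of 62 members in males and 16 of 62 in females. Their median absolute difference was 0.042 in males and 0.089 in females. It exceeded 0.3 for Hnrnpc, Hnrnpf and Srsf5 in males and for Srsf3 in females. Hnrnpf had -0.84 on TPM and -0.13 in the deposited table in males, and Hnrnpc had -0.43 and 0.00. Srsf3 had 0.92 and 0.06 in females.

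**Figure D4:**
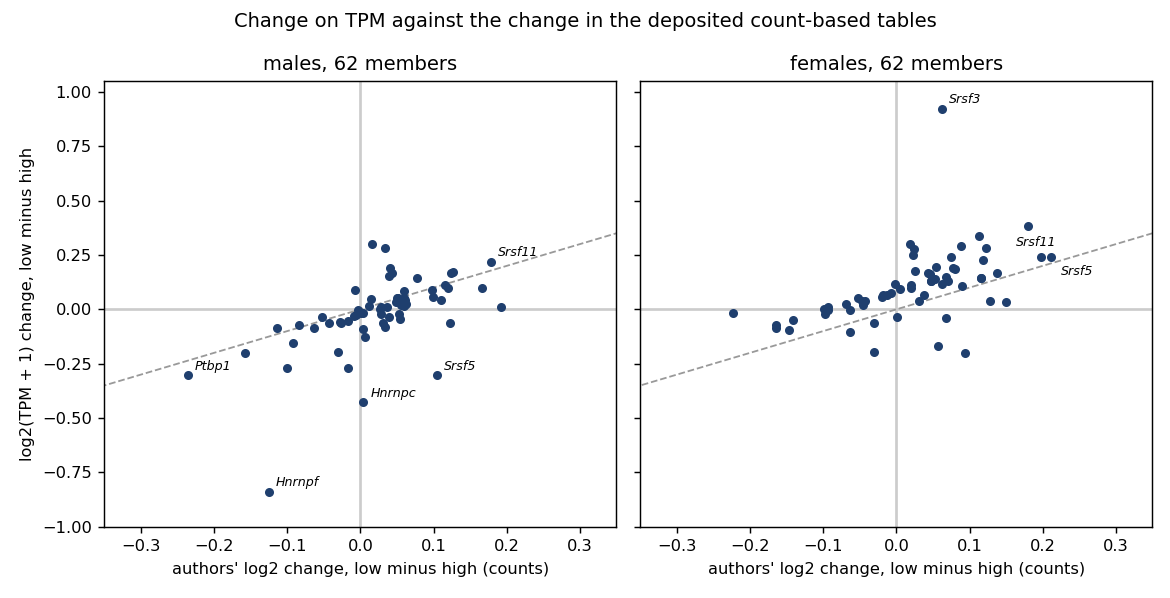
Change on log2(TPM + 1) against the authors' deposited change, both low minus high extinction, for 62 members in males (left) and females (right), with a dashed line of equality. Hnrnpf, Hnrnpc and Srsf5 in males and Srsf3 in females lie farthest from the line, by more than 0.3.

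Srsf3, Hnrnpc and Hnrnpf were among 6 members whose TPM had a gap of at least 0.5 on the log2 scale between neighbouring libraries. That was 6 of 62 members (9.68%), against 5.17% of the 13138 genes that averaged 5 TPM or more. In Hnrnpf and Hnrnpk the gap set off only 1 library. Srsf3, a small SR protein that regulates its own splicing, lay at 10.1, 27.6 and 10.6 TPM in males with low extinction and at 10.0, 8.44 and 25.0 TPM in males with high extinction. In females it lay at 28.1, 32.4 and 31.3 TPM with low extinction and at 28.5, 11.7 and 11.3 TPM with high extinction. Each library was thus at 8.44 to 11.7 TPM or at 25.0 to 32.4 TPM, and 6 libraries were at each level. The deposited changes of Srsf3 were 0.08 (SE 0.07) in males and 0.06 (SE 0.07) in females.

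Hnrnpf, which binds runs of G, lay at 7.07 TPM in replicate 2 of the males with low extinction and at 30.2 to 46.0 TPM in the other libraries. Hnrnpc, which binds runs of U in nascent RNA, lay at 31.8 to 38.3 TPM in 3 libraries and at 76.9 to 95.8 TPM in 9. Hnrnpa3 lay at 26.4 to 31.6 TPM in 6 libraries and at 51.2 to 55.6 TPM in the other 6. Mbnl1 lay below its gap in 8 libraries, at 43.3 TPM or less, and above it in 4, at 63.8 TPM or more. Hnrnpk, which binds runs of C, lay at 67.1 TPM in replicate 1 of the females with low extinction and at 95.8 to 187 TPM elsewhere. The levels of Srsf3, Hnrnpc, Hnrnpa3 and Mbnl1 split libraries of the same group, and the cause was not tested.

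**Figure D5:**
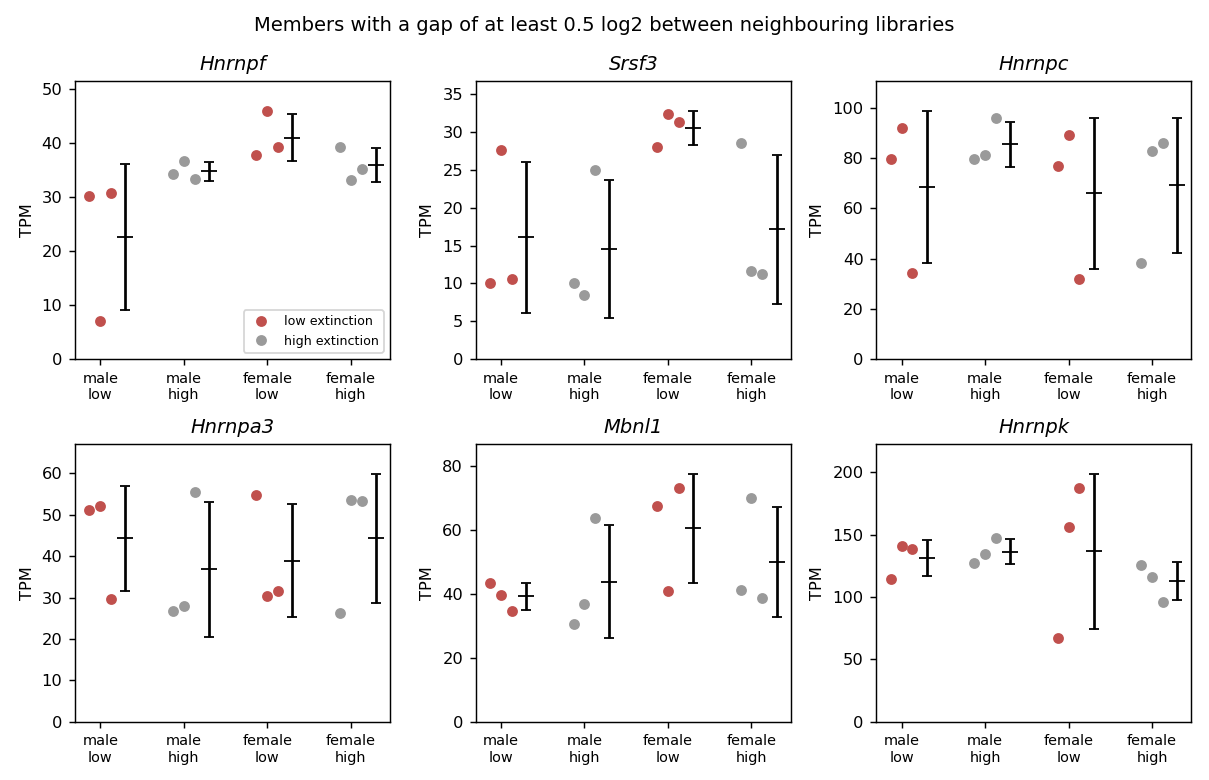
TPM of Hnrnpf, Srsf3, Hnrnpc, Hnrnpa3, Mbnl1 and Hnrnpk in each library, low extinction left of high extinction within each sex. Srsf3 lies at 8.44 to 11.7 TPM or at 25.0 to 32.4 TPM, with libraries of 1 group at both levels.

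The annotation lists many alternative transcripts for these genes. In GENCODE M21, 28 of the 63 members (44.4%) had a transcript classed for nonsense-mediated decay, against 20.4% of the 18458 genes that averaged 1 TPM or more. A retained-intron transcript was annotated for 46 members (73%), against 42.8%. The decay class was found in 9 of 11 Srsf, 2 of 2 Tra2, 3 of 3 Ptbp and 10 of 20 Hnrnp genes, in 3 of 6 Celf and 1 of 6 Sf3b genes, and in none of the Rbfox, Nova, Mbnl, Elavl and Sf3a genes. Members had a median of 8 annotated transcripts, against 4. These are counts of annotated models and not of transcripts measured here. The background held genes of every annotated type and was not matched to the members in level.

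Related genes of RNA processing gave few calls. In the authors' deposited tables none of 9 SR protein kinases, none of 39 core spliceosome genes and none of 8 decay factors was called in either sex. Of 39 other splicing regulators, Tia1 was called in males, and Tia1, Tial1 and Rbm5 in females, all higher, where the tables called 0.115% of all genes higher in males and 0.569% in females. Tia1 had 0.28 (adjusted p = 0.0441) in males and 0.23 (adjusted p = 0.0363) in females, and its relative Tial1 had 0.12 and 0.22 (adjusted p = 0.0422). Rbm5, which regulates exons of apoptosis genes, had 0.04 and 0.22 (adjusted p = 0.0213). Limma on TPM called none of the genes in these lists. The smallest averaged p on TPM belonged to Tial1 (0.25) and Son (0.17) among the other regulators, Snrpf (-0.27) and Sf1 (0.16) in the core, Prpf4b (0.13) and Clk1 (0.10) among the kinases, and Smg1 (0.09) and Upf1 (-0.06) among the decay factors. Their adjusted p ran from 0.286 for Tial1 to 0.920 for Upf1.

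Of 7 nuclear-retained RNAs, the deposited tables called Meg3, Snhg11, Malat1 and Miat in males and Meg3 and Snhg11 in females, all higher, against the same 0.115% and 0.569% of all genes. Their summed level was 3421 to 3562 TPM in males with low extinction and 2831 to 2971 TPM in males with high extinction. In females it was 3668 to 3958 TPM with low extinction and 2899 to 3377 TPM with high extinction, so the groups did not overlap in either sex. Malat1 alone held 1132 to 1842 TPM over all libraries, and 5 of the 7 had an averaged TPM change above 0. This list, like the others, was chosen with earlier results of these data known, so its share of calls describes it and is no test. On TPM, Snhg11 had an averaged change of 0.34 (limma's adjusted p = 0.271) and Miat 0.20. The 10 immediate early genes had median deposited changes of -0.35 in males and -0.36 in females, and the deposited tables called 2 of them lower in males and 7 lower in females. Of all 18499 genes at 1 TPM or more, the deposited tables called 69 lower in males and 45 lower in females.

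Of the cell type and region marker lists, some sums separated low from high extinction on TPM as deposited. Among single genes, 4.2% were higher and 7.28% lower without overlap in males, and 14.3% and 1.98% in females. No such share was computed for sums of lists, so these separations cannot be set against a background. The 6 ependymal markers summed to 17.2 to 34.2 TPM in males with low extinction and 48.9 to 57.6 TPM in males with high extinction, and overlapped in females. The 5 markers of mural cells summed to 78.5 to 84.1 TPM in males with low extinction and 85.4 to 102 TPM in males with high extinction. That gap was narrow. Replicate 1 with low extinction had 84.1 TPM, with 13.5% of its TPM derived from ribosomal RNA. Replicate 3 with high extinction had 85.4 TPM, with 9.68% so derived, and setting that share aside reverses their order. In females the mural sums were higher with low extinction, at 110 to 132 TPM against 81.0 to 94.9 TPM with high extinction. Lists that separated in females and overlapped in males were the endothelial, meningeal, thalamic and excitatory ones. The 5 endothelial markers summed to 118 to 119 TPM in females with low extinction and 96.8 to 116 TPM with high extinction. The closest were replicate 3 with low extinction, at 118 TPM and 5.96% derived from ribosomal RNA, and replicate 1 with high extinction. The latter had 116 TPM and 9.16%, and setting that share aside reverses their order as well. The 6 meningeal fibroblast markers summed to 78.2 to 95.8 TPM in females with low extinction and 59.8 to 67.5 TPM with high extinction, and the 6 thalamic markers to 81.4 to 102 TPM with low extinction and 60.3 to 75.2 TPM with high extinction. The 5 markers of excitatory neurons summed to 3037 to 3399 TPM in females with low extinction and 3504 to 3669 TPM with high extinction. Of these only Slc17a7 separated by itself, at 537, 711 and 601 TPM with low and 906, 872 and 941 TPM with high extinction. The median TPM change of the 5 markers in females was -0.03, with 2 above 0, so the sum does not describe the list as a whole. The other lists overlapped in both sexes, among them the 7 choroid plexus markers, whose sums had the widest range. These were 56.9 to 970 TPM in males with low extinction, 331 to 3481 TPM in males with high extinction, 103 to 1078 TPM in females with low extinction and 23.7 to 1258 TPM in females with high extinction. The part of the nuclear-retained RNAs, immediate early genes and these markers in the differences of Srsf11, Srsf5, Hnrnph3, Hnrnpu and Ptbp1 was not tested.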

How the data were processed

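Hippocampal polyadenylated RNA of 12 mice, 3 per sex and extinction level, was analysed by gene. Tools named in the submitters' processing notes were StringTie 1.3.3b, HTSeq, DESeq2, TopHat2 and Bowtie2, with GRCm38.p5 and mm10 as builds, and their roles are not stated there. The authors deposited TPM in a separate table for each sex. Per the file headers, the authors also deposited a DESeq2 table for each sex, with a mean normalized count (a signal), a log2 fold change and its standard error, a test statistic (a score), a p-value and an adjusted p-value. These tables do not name their direction. Of the genes called at 1 TPM or more, 92 of 92 (males) and 129 of 130 (females) had the sign opposite to the low minus high TPM change, so the deposited log2 changes were multiplied by -1.

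Genes averaging 1 TPM or more were tested on log2(TPM + 1), a scale on which changes of low genes come out too small, with limma 3.58.1 in R 4.3.3 (mean-variance trend, Benjamini-Hochberg adjustment over all genes, threshold 0.05). Fits used the 6 libraries of a sex, or all 12 for the average and for the male minus female difference. Srsf5 was also tested by exact permutation. Deposited changes were averaged or subtracted between sexes with their standard errors combined and a normal approximation, after the data were seen. Depth per library is unknown, as no count per library was analysed here. Replicate numbers follow record order.

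The members and lists were chosen with earlier results of these data known. Statistics were given for Srsf5, members called by limma or a deposited table, the 8 per direction with the smallest averaged p, up to 6 per sex without overlap, the 5 with the smallest p for the sex difference, the 6 with the largest spread within groups, and the extremes of each family. Srsf6, Sf3b1, Hnrnpm, Hnrnpa0, Rbfox genes and Hnrnpk were added after their values were seen. GENCODE M21 on GRCm38 gave positions and overlaps; all 63 members were found, 52 with the same version, 20 overlapping a gene on the same strand and 30 on the opposite strand. Promoters are from RefSeq. Alternatives were leaving out each replicate, a joint fit, no variance trend, and other filters, pseudocounts and scalings.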

Additional observations from a re-analysis of the deposited data

How the results depend on the processing

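Of 223 alternative values computed, 215 kept their direction and side of the threshold or stayed within the spread. The number of members called by limma stayed at 0 in each setting other than leaving out libraries. Leaving out libraries gave 0 to 1 in females: without replicate 1 of the high-extinction females, Srsf3 was called at 1.34 (adjusted p = 0.0357; the member's TPM lies at separate levels). The members' median change in females was 0.029 under median-ratio scaling, against 0.10 as deposited, and 0.05 to 0.12 on leaving out libraries. The members called in the deposited tables were 2 when the sexes' changes were averaged, against 1. For Srsf5 on TPM, leaving out libraries gave -0.0040 to 0.41 in females, turning without replicate 3 of the high-extinction females, and -0.15 to 0.053 on average. The average turned without replicate 3 of the low-extinction males, replicate 2 of the low-extinction females or replicates 1 or 2 of the high-extinction females (0.02, 0.04, 0.0074 and 0.053). The cause was not tested. Leaving out libraries moved the averaged changes of Srsf11 to 0.21 to 0.25 (adjusted p from 0.268 to 0.532), of Hnrnph3 to 0.20 to 0.25 (0.296 to 0.534) and of Hnrnpu to 0.22 to 0.31 (0.301 to 0.570), and the sex difference of Ptbp1 to -0.66 to -0.45 (0.374 to 0.794). No paired analysis was possible because the replicate numbers follow record order and pair no mice. TPM keeps no record of depth, so what depth limits could not be measured.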

Other observations

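Of the symbols ending in -ps that the rule left out, Hnrnpa1l2-ps2 was listed at a mean of 9.14 TPM and at 8.24 to 10.5 TPM across the 12 libraries. Hnrnpa1l2-ps and Tra2b-ps were listed at 0. Reads of Hnrnpa1, which averaged 41.8 TPM, can be shared with such copies, so the split of TPM between them is uncertain.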
